A study of Mus musculus with 31 samples.

Results

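The guanylate-binding protein (GBP) family was followed through both experiments of the series, in cultured mouse microglia and in mouse hippocampus. The family consisted of 9 genes, Gbp2, Gbp2b, Gbp3, Gbp4, Gbp5, Gbp6, Gbp7, Gbp8 and Gbp9, taken by gene name from the microglial table and by the same Ensembl identifier from the hippocampal table. These were 9 of 54532 genes in the microglial table and 9 of 48795 genes in the hippocampal table. After a filter on low counts, 8 members could be tested in each experiment, all but Gbp2b in microglia and all but Gbp8 in hippocampus.

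GBPs are large GTPases of the dynamin superfamily whose transcription is switched on by type I and type II interferons. An interferon receptor activates Janus kinases, which phosphorylate transcription factors that then enter the nucleus and bind the promoters of interferon-stimulated genes. GBP proteins assemble on the vacuoles and surfaces of intracellular pathogens and take part in inflammasome activation. In brain tissue, microglia are among the cells that express them under interferon signalling. The enzyme cGAS, encoded by Cgas, senses DNA in the cytosol and leads through STING to the production of interferon β.

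The study compared the RNA of primary microglia from mouse brain in 6 groups of 3 libraries each. Wild-type (WT) and Cgas knockout (KO, Cgas-/-) cells each received vehicle alone, fibrils of tau, or HT-DNA, which is DNA from herring testis and a stimulus that cGAS detects. The cells came from cultured glia of newborn pups. The second experiment measured whole hippocampus of mice aged 8 to 9 months, 6 of them P301S (3 female and 3 male) and 7 non-transgenic (Ntg, 3 female and 4 male). P301S mice carry a transgene for human tau with the P301S mutation under the mouse prion promoter, which is active in neurons and other cells. The labels give no strain, no treatment and no Cgas genotype for the hippocampal mice, and they do not say whether the libraries of a microglial group came from separate cultures. The study calls its microglial samples biologically independent without saying what separates them, and the p-values for microglia measure the spread between these libraries.

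Total counts ran from 17037459 to 25174764 in the 18 microglial libraries and from 25953296 to 35779977 in the 13 hippocampal libraries. Levels are given as CPM, counts relative to library size after scaling by trimmed mean of M values (TMM), and differences as log2 fold changes from edgeR's quasi-likelihood test with Benjamini-Hochberg adjustment over 13675 microglial or 16453 hippocampal genes. A gene was called at an adjusted p under 0.05 with a log2 fold change beyond 1 in microglia or beyond 0.5 in hippocampus. Cgas averaged 23.2 CPM in WT and 4.93 CPM in KO vehicle libraries (log2 fold change -2.22), lower in every KO library but not at 0. Mapt, which encodes tau, averaged 997 CPM in P301S and 572 CPM in Ntg hippocampus.

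The members lie in 2 clusters (GRCm38, GENCODE M21). The 5 genes of the first cluster are on the forward strand of chromosome 3, in the order Gbp5 (chr3:142493978-142522344), Gbp7 (chr3:142530342-142550149), Gbp3 (chr3:142560026-142573209), Gbp2b (chr3:142594847-142619179) and Gbp2 (chr3:142620602-142638008). The 4 genes of the second are on the reverse strand of chromosome 5, Gbp8 (chr5:105014150-105139540), Gbp9 (chr5:105077630-105139539), Gbp4 (chr5:105115767-105139586) and Gbp6 (chr5:105270702-105293698). The annotated spans of Gbp8 and Gbp9 share 61910 bases on the same strand, and those of Gbp9 and Gbp4 share 23773 bases.

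Promoter sequences were at hand for the 5 chromosome 3 genes and were searched for the interferon-stimulated response element, the sequence bound by interferon regulatory factors. For each gene 60 bases of the forward strand around a match are printed, 5′ to 3′, from RefSeq GRCm38.p6, and capitals mark every motif match that falls inside them.
Gbp5 (chr3:142496724-142496783): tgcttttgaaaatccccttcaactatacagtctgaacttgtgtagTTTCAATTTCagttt
Gbp7 (chr3:142530238-142530297): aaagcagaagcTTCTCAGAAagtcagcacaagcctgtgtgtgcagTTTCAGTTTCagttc
Gbp3 (chr3:142559960-142560019): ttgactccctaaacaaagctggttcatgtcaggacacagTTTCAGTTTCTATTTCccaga
Gbp2b (chr3:142594665-142594724): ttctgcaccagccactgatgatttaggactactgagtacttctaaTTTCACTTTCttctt
Gbp2 (chr3:142620559-142620618): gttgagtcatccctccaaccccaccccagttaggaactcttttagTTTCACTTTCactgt

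The core of this element, GAAA followed by any 2 bases and a second GAAA, was searched on both strands from 250 bases before to 50 bases after the start site. It matched in 5 of the 6 windows of these genes, each time on the strand opposite to the one printed, and the window without it belongs to a second start site of Gbp3. It occurs in 3.44% of 32851 such windows of the same RefSeq table. Counted from the RefSeq start site, the match lay at -59 to -50 in Gbp2, -53 to -44 in Gbp7, -137 to -128 in Gbp2b and -165 to -156 in Gbp5. Gbp3 held 2 overlapping matches, at -45 to -36 and -39 to -30. The RefSeq start sites are not all the starts of the GENCODE spans given above. The matches of Gbp2 (chr3:142620604-142620613) and Gbp5 (chr3:142496769-142496778) lie inside those spans. The matches of Gbp2 and Gbp2b have the same 10 letters. The gamma-activated site TTCNNNGAA occurs in 8.30% of windows and was found in Gbp5 (-245 to -237 and -52 to -44) and in Gbp7 (-106 to -98, and -87 to -79, the shorter run of capitals in its printed stretch). Gbp4, Gbp6, Gbp8 and Gbp9 were not in the promoter table.

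Counting reads for these genes carries uncertainty where they resemble each other. Of all runs of 50 bases in the annotated transcripts of Gbp6, 90.2% also occur in another gene, mostly in the overlapping gene model Gm43302, for which almost no reads were counted in any library. The share was 21.2% for Gbp8, 12.7% for Gbp7, 11.9% for Gbp4 and 9.56% for Gbp9. It stayed at 3.83% or lower for Gbp3, Gbp2, Gbp2b and Gbp5. In the last 300 bases of the transcripts, where 3′ libraries take most of their reads, the share was 100% for Gbp6, 11.6% for Gbp4, 3.03% for Gbp5 and 0% for the other 6 members. The values of Gbp6, and to a lesser degree those of Gbp4, are uncertain for this reason, since the sources used here do not say how reads shared between genes were counted.

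In microglia, Gbp2, which coats pathogen-containing vacuoles, showed the pattern that most of the family followed. Its level in the 3 vehicle libraries of WT cells was 94.2, 36.9 and 57.3 CPM. With tau fibrils it was 380, 337 and 396 CPM, and with HT-DNA 579, 664 and 645 CPM. In KO cells it was 3.40, 4.8 and 4.0 CPM with vehicle, 78.8, 66.3 and 70.3 CPM with tau fibrils and 3.39, 4.93 and 3.59 CPM with HT-DNA. The WT groups were thus ordered HT-DNA, tau fibrils, vehicle without overlap, the KO libraries with tau fibrils fell within the range of WT vehicle, and the KO libraries with vehicle and with HT-DNA overlapped below all others.

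Gbp5, which promotes activation of the NLRP3 inflammasome, followed the same course. WT libraries had 52.5, 14.5 and 28.2 CPM with vehicle, 240, 200 and 270 CPM with tau fibrils and 365, 431 and 396 CPM with HT-DNA. KO libraries had 0.335, 0.730 and 0.660 CPM with vehicle, 33.8, 33.4 and 34.7 CPM with tau fibrils and 0.424, 0.562 and 0.418 CPM with HT-DNA. The order of the groups was that of Gbp2, with less than 1 CPM in all 6 KO libraries that had no tau fibrils.

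Gbp3 and Gbp7, their neighbours on chromosome 3, did so too. Gbp3 averaged 54.8 ± 18.8 CPM (SD, n = 3 here and for the other group means in microglia) in WT vehicle, 269 ± 30.9 with tau fibrils and 432 ± 20.5 with HT-DNA, against 3.25 ± 0.745, 44.2 ± 4.30 and 4.47 ± 0.470 in KO. Gbp7, which has been linked to the phagocyte NADPH oxidase, averaged 46 ± 20.0, 213 ± 26 and 367 ± 5.83 CPM in WT and 6.40 ± 0.462, 47.3 ± 1.47 and 5.77 ± 0.978 CPM in KO, in the same order. For both genes the KO libraries with tau fibrils overlapped the WT vehicle libraries. Gbp2b, formerly named Gbp1 and known for interferon inducibility that differs between inbred strains, had no read in the 12 libraries with vehicle or HT-DNA and at most 3 reads in any library with tau fibrils, so that no comparison of it was detectable in microglia at this depth.

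On chromosome 5, Gbp4, described as a negative regulator of IRF7, averaged 3.95 ± 2.06, 21.9 ± 3.39 and 37.2 ± 4.37 CPM in WT cells given vehicle, tau fibrils and HT-DNA. In KO cells its counts were 3, 2 and 0 reads with vehicle, 41, 39 and 66 with tau fibrils and 0, 4 and 7 with HT-DNA. Gbp6 averaged 11 ± 4.15, 51.5 ± 5.46 and 57.3 ± 0.221 CPM in WT, where the libraries with tau fibrils and with HT-DNA overlapped, and 1.12 ± 0.238, 15.5 ± 1.24 and 1.49 ± 0.0314 CPM in KO. Gbp9 averaged 38.1 ± 10.3, 118 ± 9.51 and 193 ± 15.9 CPM in WT and 2.92 ± 0.251, 22.7 ± 1.24 and 3.34 ± 0.825 CPM in KO. It was the member whose KO libraries with tau fibrils all lay below the WT vehicle libraries.

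Gbp8 shared the order of the WT groups, also without overlap, but not the rest of this pattern. It stayed between 1.17 and 5.21 CPM in all 18 libraries, with means of 1.74 ± 0.674, 3.36 ± 0.255 and 4.76 ± 0.551 CPM in WT and 2.84 ± 0.195, 3.27 ± 1.15 and 2.12 ± 0.238 CPM in KO, the treatments in the same order. Over the 18 libraries, Pearson's r of a member's log2 CPM with the mean of the tested members was 0.977 to 0.997 for the other 7 and 0.614 for Gbp8. That mean includes the member itself, which raises each r. Between Gbp8 and single other members r was 0.477 to 0.583. These values are a description that rests on 6 groups rather than 18 independent points.

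**Figure D1:**
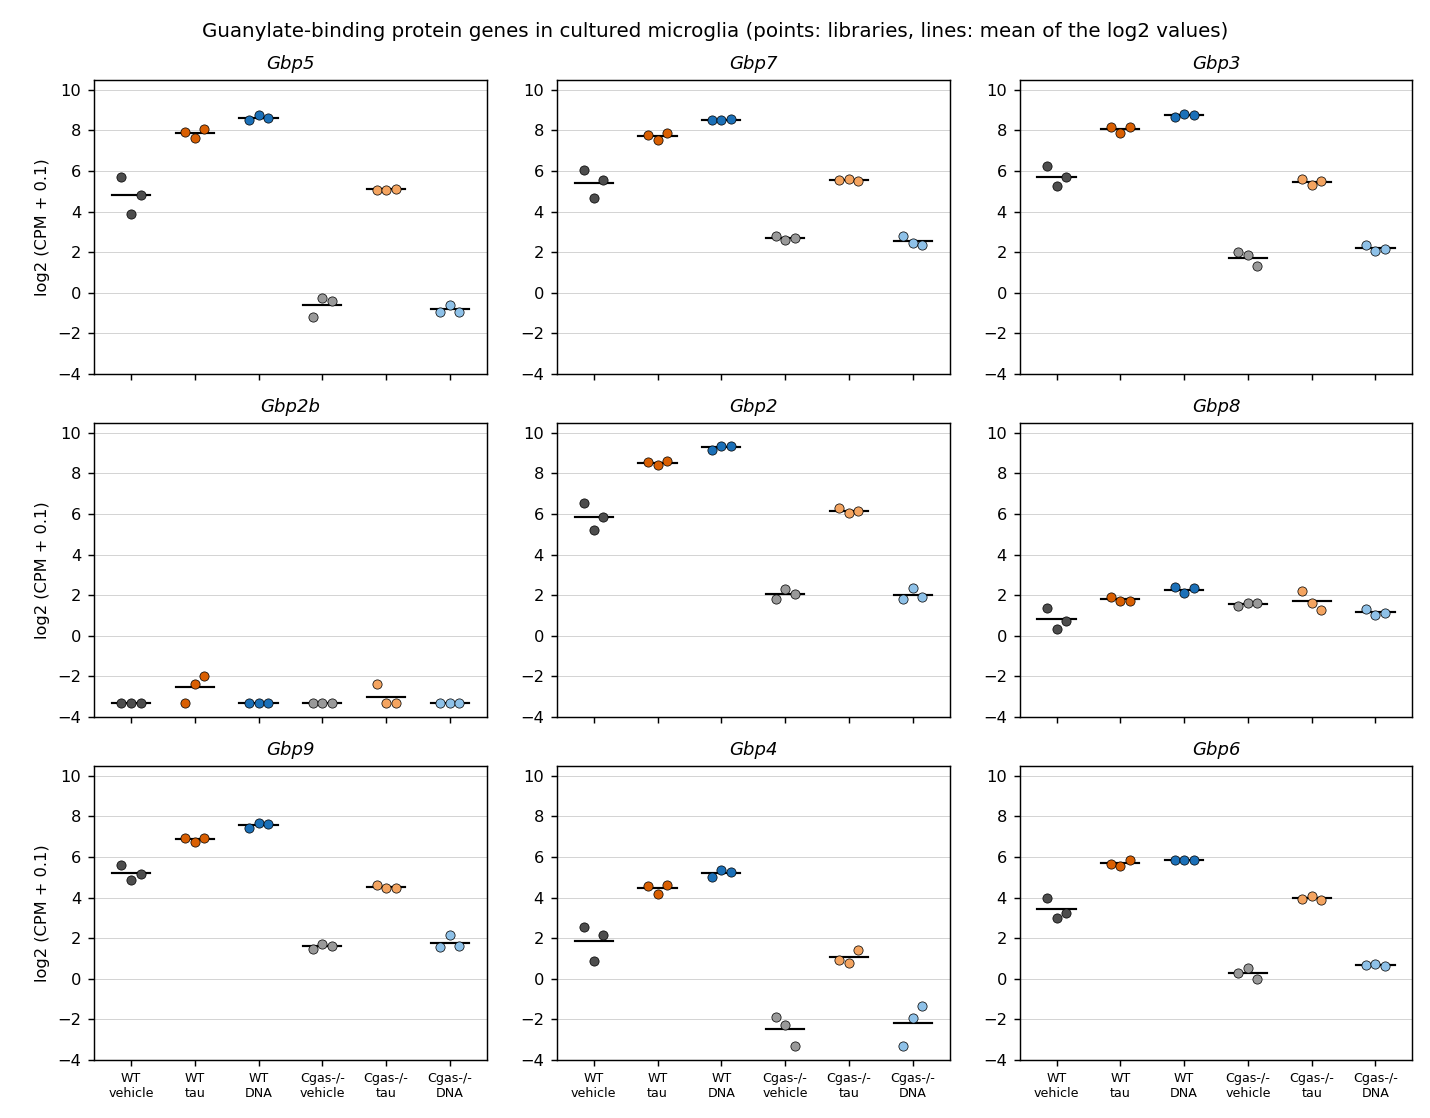
Level of each of the 9 members in the 18 microglial libraries, as log2 of CPM plus 0.1. Points are libraries, lines are means of the log2 values, and the groups are WT and Cgas-/- cells by treatment. In the panels of all members but Gbp2b and Gbp6 the WT groups step up from vehicle to tau to DNA, least so for Gbp8. In that of Gbp6 the WT tau and DNA libraries overlap above vehicle. Only the tau group stands up among the Cgas-/- groups, while Gbp8 stays between 1.17 and 5.21 CPM and Gbp2b at 0 to 3 reads.

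The first question was how far tau fibrils and HT-DNA raised the family in WT microglia. With tau fibrils, 7 of 8 tested members were called higher, where 2.89% of all tested genes were. The median log2 fold change of the 8 was 2.26, against -0.01 for all genes. The largest rises were those of Gbp5 (log2 fold change 2.90, SE 0.20, adjusted p 3.24e-12) and Gbp2 (2.56, SE 0.16, adjusted p 6.94e-13), and the smallest called rise was that of Gbp9 (1.63, SE 0.11, adjusted p 1.34e-12). Gbp8 was higher in 3 of 3 libraries, as were 21.7% of all tested genes, with a log2 fold change of 0.94 (SE 0.25, adjusted p 0.00404), under the fold minimum. Among the vehicle libraries of WT cells, replicate 1 was the highest for all 8 members, and without it the value of Gbp5 was 3.50 and that of Gbp8 passed the fold minimum at 1.31 (adjusted p 0.000309).

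With HT-DNA, all 8 tested members were called higher in WT cells, where 5.29% of all tested genes were, with a median log2 fold change of 2.99 against -0.03 for all genes. Gbp5 again rose most (3.64, SE 0.20, adjusted p 7e-15), followed by Gbp2 (3.32, SE 0.17), Gbp4 (3.24, SE 0.22), Gbp7 (3.0, SE 0.16) and Gbp3 (2.98, SE 0.13). Gbp6 (2.37, SE 0.13) and Gbp9 (2.34, SE 0.11) rose less, and Gbp8 least (1.45, SE 0.24, adjusted p 1.02e-05). Both stimuli were compared with the same vehicle libraries.

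Set directly against each other, the level with tau fibrils was 57.9% to 62.4% of the level with HT-DNA for Gbp2, Gbp3, Gbp4, Gbp5, Gbp7 and Gbp9. No member passed the fold minimum, where 1.49% of all tested genes were called lower with tau fibrils. These 6 members had adjusted p-values from 1.2e-06 (Gbp9) to 0.00108 (Gbp4), all lower with tau fibrils, where 17.8% of all tested genes were lower at an adjusted p under 0.05. All their libraries with tau fibrils lay below those with HT-DNA, as for 22.9% of all tested genes. Gbp6 stood at 89.9% with overlapping libraries (log2 difference -0.16, adjusted p 0.315). Gbp8 stood at 70.6% (-0.50, adjusted p 0.079), also with all 3 libraries below those with HT-DNA, as for the same 22.9%.

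The second question was what the loss of Cgas did to the family. In vehicle-treated cells, 7 of 8 tested members were called lower in KO than in WT, where 7.35% of all tested genes were. The level in KO was 1.81% of that in WT for Gbp5 (log2 fold change -5.75, SE 0.46, adjusted p 2.01e-11), 6.48% for Gbp2 (-3.94, SE 0.25), 5.94% for Gbp3 (-4.10, SE 0.21), 7.66% for Gbp9 (-3.70, SE 0.18), 10.1% for Gbp6 (-3.32, SE 0.24) and 13.9% for Gbp7 (-2.85, SE 0.22). Gbp4, at or under 3 reads in each KO library, was at least 26-fold lower, with 3 reads per library taken as the floor. Gbp8 went the other way, with all 3 KO libraries above the WT libraries, as for 27.7% of all tested genes, at 164% of the WT level. Its log2 fold change of 0.71 (SE 0.25, adjusted p 0.0196) was under the fold minimum, which it passed without WT vehicle replicate 1 (1.08, adjusted p 0.00163).

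Markers of cell types also differed between these vehicle-treated groups. The summed level of 6 microglial and macrophage markers was 3697 to 3773 CPM in KO and 5163 to 5232 CPM in WT (0 of 6 called, median log2 fold change -0.69), and that of 7 homeostatic microglial markers was 2043 to 2161 against 3207 to 3313 CPM (1 of 6 tested called lower). All 5 fibroblast markers were at or under 3 reads in every KO library, with a sum of 0.0521 to 0.220 CPM against 2.61 to 4.26 CPM in WT. The endothelial sum was 20.7 to 24.9 against 87.3 to 98.4 CPM. The part of these differences in the GBP levels was not tested. In bulk samples like these, fewer cells of a type and less RNA per cell cannot be told apart. Within WT cells the microglial and macrophage sum was 5120 to 5157 CPM with tau fibrils and 5363 to 5725 CPM with HT-DNA, with 0 of 6 markers called in either comparison. The endothelial sum was 100.1 to 125 CPM with tau fibrils and 276 to 280 CPM with HT-DNA, and both tested markers were called higher with HT-DNA. The astrocyte sum was 4.67 to 5.89 CPM with vehicle, 8.6 to 10.6 CPM with tau fibrils and 10.6 to 13.7 CPM with HT-DNA, with 2 of 5 tested markers called higher with tau fibrils and 1 with HT-DNA. The part of these markers in the GBP responses was not tested. In KO cells none of the tested markers of these cell types was called with either stimulus.

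Under tau fibrils, 7 of 8 tested members were again called lower in KO than in WT, where 7.41% of all tested genes were. The KO level was 9.16% of the WT level for Gbp4, 14.3% for Gbp5, 16.4% for Gbp3, 19.2% for Gbp9, 19.4% for Gbp2, 22.2% for Gbp7 and 30.1% for Gbp6. Gbp8 was at 97.4% with overlapping libraries (log2 fold change -0.04, SE 0.22, adjusted p 0.888). Under HT-DNA, all 8 were called lower in KO, where 11.8% of all tested genes were, from 0.118% of the WT level for Gbp5 (log2 fold change -9.70, SE 0.35) and 0.631% for Gbp2 (-7.29, SE 0.23) to 44.5% for Gbp8 (-1.17, SE 0.23, adjusted p 6.67e-05).

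The third question was whether the 2 stimuli still acted on the family without Cgas. Tau fibrils raised 7 of 8 tested members in KO cells, where 2.46% of all tested genes were called higher, with a median log2 fold change of 3.80 against 0.01 for all genes. Gbp5 rose by a log2 fold change of 5.85 (SE 0.45, adjusted p 2.68e-11), Gbp2 by 4.14 (SE 0.24, adjusted p 1.13e-13), Gbp6 by 3.80 (SE 0.22), Gbp3 by 3.79 (SE 0.21), Gbp9 by 2.95 (SE 0.19) and Gbp7 by 2.89 (SE 0.22). Gbp4 was at least 13.2-fold higher than the floor of 3 reads per library. The value of Gbp8 was 0.19 (SE 0.23, adjusted p 0.669) with overlapping libraries.

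On the log2 scale the rise with tau fibrils was larger in KO than in WT for 5 members by the interaction term, where 3.61% of all tested genes had a higher and 3.31% a lower term at an adjusted p under 0.05. The terms were 2.95 (SE 0.64, adjusted p 0.00359) for Gbp5, 1.59 (SE 0.30, adjusted p 0.000838) for Gbp6, 1.58 (SE 0.32, adjusted p 0.00189) for Gbp2, 1.49 (SE 0.27, adjusted p 0.00072) for Gbp3 and 1.32 (SE 0.23, adjusted p 0.000407) for Gbp9. They were 2.02 (SE 0.90, adjusted p 0.20) for Gbp4, 0.68 (SE 0.28, adjusted p 0.164) for Gbp7 and -0.75 (SE 0.34, adjusted p 0.199) for Gbp8. Without WT vehicle replicate 1 the term of Gbp5 was 2.35 and that of Gbp8 was called, at -1.12 (adjusted p 0.0426). Without WT vehicle replicate 2, Gbp7 (0.98, adjusted p 4.37e-05) and Gbp4 (2.40, adjusted p 0.0257) were called too.

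KO cells started from a lower level, and on the linear scale the order was the opposite. Between vehicle and tau fibrils the mean of Gbp2 rose by 308 CPM in WT and by 67.8 CPM in KO. The corresponding rises were 205 and 33.4 CPM for Gbp5, 214 and 41.0 CPM for Gbp3, 167 and 40.9 CPM for Gbp7, and 80.1 and 19.7 CPM for Gbp9. The mean of Gbp2 in KO cells with tau fibrils was 114% of that in WT cells with vehicle, and the corresponding value was 107% for Gbp5, 103% for Gbp7, 141% for Gbp6, 80.7% for Gbp3, 59.4% for Gbp9 and 50.8% for Gbp4. These last ratios cross both factors and were not tested.

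HT-DNA moved no member past the thresholds in KO cells. By edgeR, 0.0146% of all tested genes were called higher and 0.00731% lower there, while 1688 of 13675 had an unadjusted p under 0.05. The log2 fold changes of the members ran from -0.44 (Gbp8, SE 0.24) to 0.91 (Gbp4, SE 1.24), with adjusted p-values from 0.486 to 0.992 and overlapping libraries for Gbp2, Gbp4, Gbp5, Gbp7 and Gbp9. All 3 libraries with HT-DNA were above the vehicle libraries for Gbp3 (0.47, SE 0.31) and Gbp6 (0.43, SE 0.35) and below them for Gbp8, where 10.4% of all tested genes lay above in this way and 6.76% below. The interaction term, the log2 response to HT-DNA in KO minus that in WT, was lower for 7 of 8 members, where 16.6% of all tested genes had a lower term. It was -3.34 (SE 0.43, adjusted p 3.91e-07) for Gbp2 and -3.95 (SE 1.28, adjusted p 0.0172) for Gbp5, which lost its call without KO vehicle replicate 2 (-3.77, adjusted p 0.0757) or replicate 3 (-3.83, adjusted p 0.0742). Gbp4, at few reads in KO cells, had -2.33 (SE 1.56, adjusted p 0.269).

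**Figure D2:**
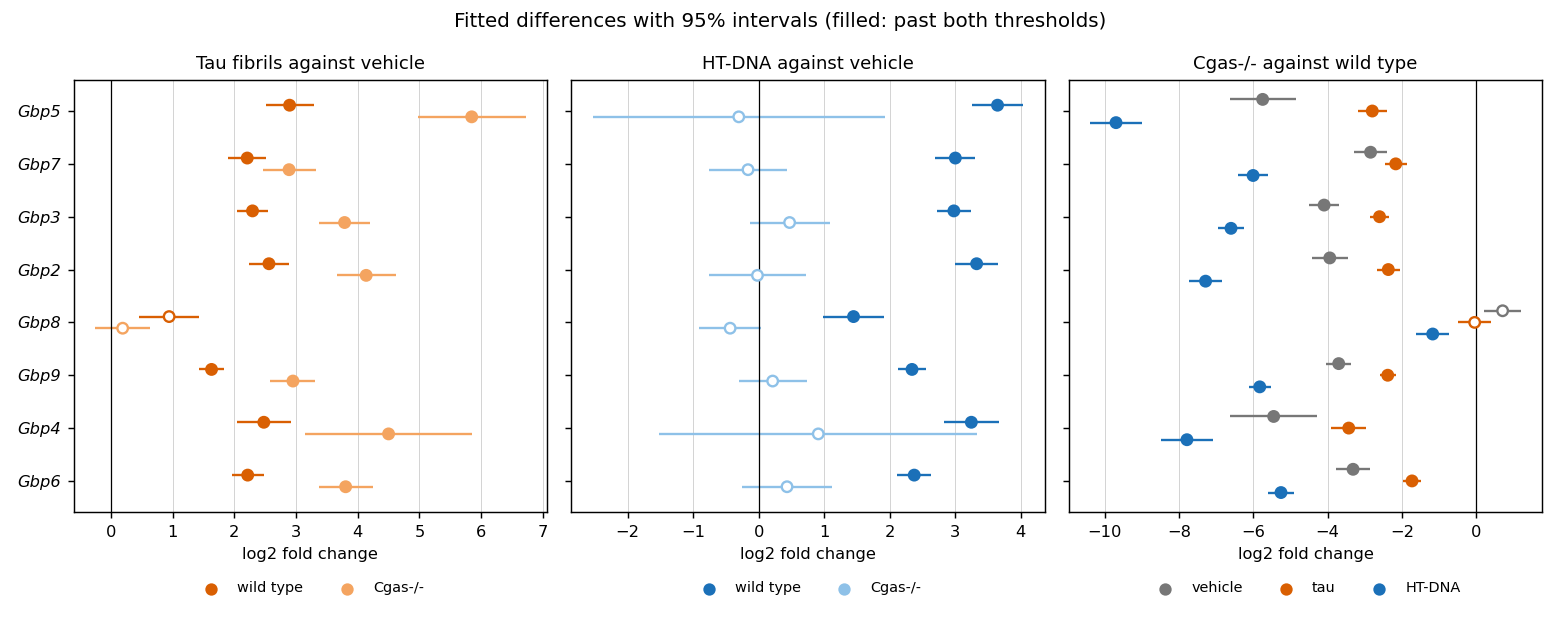
Fitted log2 fold changes of the 8 members tested in microglia, with 95% confidence intervals, in panels for tau fibrils against vehicle, HT-DNA against vehicle, and Cgas-/- against WT cells under each treatment. Filled points passed both the adjusted p and the fold minimum. For Gbp2, tau fibrils gave 2.56 in WT and 4.14 in Cgas-/- cells and HT-DNA 3.32 and -0.02, and the intervals of Gbp4 and Gbp5 are widest for HT-DNA in Cgas-/- cells, where few reads were counted.

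Genes of the interferon pathway were read beside the family from a list of 28 genes, of which 27 were tested in microglia. Tau fibrils in WT cells called 14 of the 27 higher (median log2 fold change 1.02), where 2.89% of all tested genes were. HT-DNA in WT cells called 17 higher (median 1.36), where 5.29% of all tested genes were. In KO cells tau fibrils called 12 higher (median 1.19), where 2.46% of all tested genes were. HT-DNA in KO cells called none (median 0.06), where 0.0146% of all tested genes were called higher. In vehicle-treated cells 13 of 27 were called lower in KO than in WT, where 7.35% of all tested genes were. Among the ligands, Ifnb1, which encodes interferon β, had 71 to 96 reads in the WT libraries with HT-DNA, 0 to 10 with vehicle and 1 to 11 with tau fibrils. Its count in KO libraries was 0 with vehicle or HT-DNA and 0 or 1 with tau fibrils. Ifng, which encodes interferon γ, was at or under 3 reads in every microglial library.

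None of the 4 receptor genes, Ifnar1, Ifnar2, Ifngr1 and Ifngr2, was called in any of these comparisons. For HT-DNA, 1 of them had a higher interaction term and 2 a lower one, where 16.6% of all tested genes had a lower term. The share with a higher term is not given here. Among the signal transducers, Stat2 rose with tau fibrils by a log2 fold change of 1.02 in WT and 2.74 in KO cells, and Irf7, a regulator of type I interferon genes, by 1.57 and 4.83. In KO against WT vehicle cells Stat2 (-3.58), Irf7 (-5.32), Irf9 (-1.54) and Irf1 (-1.49) were called lower. The immunity-related GTPases Irgm1, Irgm2, Igtp, Iigp1, Ifi47, Tgtp1 and Gm12250, which act with GBPs on pathogen vacuoles, were all called higher with tau fibrils and with HT-DNA in WT cells, 6 of the 7 with tau fibrils in KO cells, none with HT-DNA in KO cells, and all 7 lower in KO against WT vehicle cells. Of 5 inflammasome genes, Casp4 (log2 fold change 1.6), which encodes caspase-11, and Nlrp3 (1.13) were called higher with tau fibrils in WT cells. The paralog Gbp11 had log2 fold changes of 1.21 (adjusted p 0.0904) with tau fibrils and 1.36 (adjusted p 0.0335) with HT-DNA in WT, and 1.78 (adjusted p 0.0485) with tau fibrils in KO cells. None of the 7 genes that flank the clusters was called in any comparison between groups of microglia, and 1 and 2 of them had a lower interaction term for tau fibrils and for HT-DNA. Of all tested genes, 3.31% and 16.6% had a lower term.

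**Figure D3:**
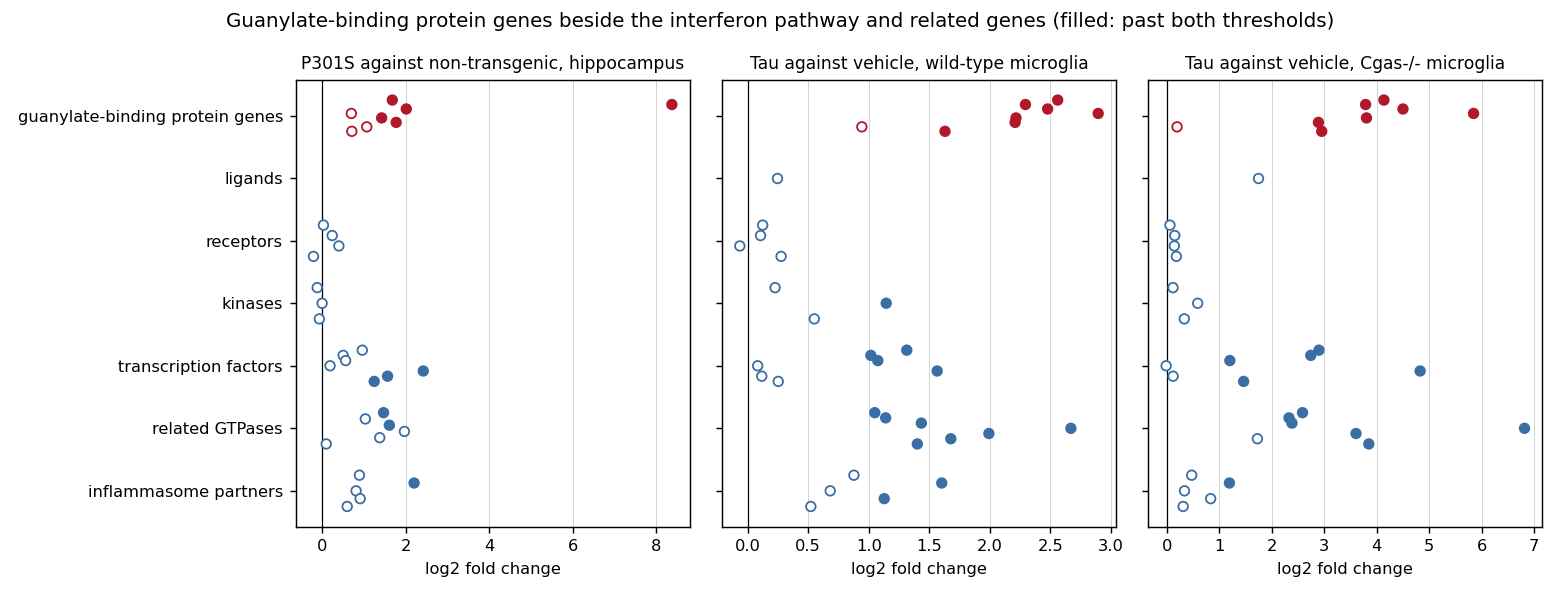
Log2 fold changes of the GBP members beside ligands, receptors, kinases and transcription factors of the interferon pathway, related GTPases and inflammasome partners, in P301S against Ntg hippocampus and with tau fibrils in WT and Cgas-/- microglia. Each point is a tested gene, filled where it passed both thresholds, and the axes differ between panels. The medians of the tested GBP members are 1.55, 2.26 and 3.80, and no receptor point is filled. The first median includes Gbp2b and Gbp6, and it is 1.24 for the 6 members that passed the low-count filter in the Ntg mice.

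In hippocampus, 5 of 8 tested members were called higher in P301S than in Ntg mice, where 1.32% of all tested genes were, and none lower, where 0.0365% were. Gbp2b and Gbp6 are among the 5 and passed the low-count filter only through the P301S mice, so that they had to differ and are given as values. Of the 6 members that passed the filter in the Ntg mice alone, Gbp2, Gbp3 and Gbp5 were called, and the median log2 fold change of the 6 was 1.24, against 0.00 for all genes. Levels in Ntg hippocampus were low, with medians of 0 to 3.54 CPM for the 9 members. Gbp2 ran from 3.14 to 6.21 CPM (median 3.54) in 7 Ntg mice and from 2.80 to 19.9 CPM (median 14.7) in 6 P301S mice. Gbp3 ran from 2.50 to 4.13 CPM (median 3.37) and from 4.24 to 26.5 CPM (median 14.2). Gbp3 and Gbp2b were the members whose groups did not overlap, as for 0.438% of all tested genes.

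The log2 fold change was 2.01 (SE 0.34, adjusted p 0.0207) for Gbp3, 1.67 (SE 0.36, adjusted p 0.0387) for Gbp2 and 1.42 (SE 0.28, adjusted p 0.0303) for Gbp5, and that of Gbp6 was 1.77 (SE 0.41, adjusted p 0.0495). Gbp5 ran from 2.05 to 2.32 CPM (median 2.21) in Ntg and from 2.21 to 8.91 CPM (median 6.07) in P301S mice, and Gbp6 from 0.152 to 0.628 CPM (median 0.332) and from 0.351 to 2.31 CPM (median 1.31). The members not called had log2 fold changes of 1.06 (Gbp7, SE 0.30, adjusted p 0.0825), 0.70 (Gbp9, SE 0.25, adjusted p 0.166) and 0.69 (Gbp4, SE 0.25, adjusted p 0.178), with 4, 3 and 4 of 6 P301S mice above every Ntg mouse. Gbp8 averaged 0.184 ± 0.0803 CPM (SD, n = 7) in Ntg and 0.182 ± 0.121 CPM (SD, n = 6) in P301S mice (two-sided exact permutation test, p 0.97).

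Gbp2b stood apart from the others. Its count was 0 in 6 Ntg mice and 2 in mouse 68, and 182, 135, 28, 63, 216 and 208 in P301S mice 29, 36, 43, 63, 65 and 77. The P301S mice averaged 4.64 ± 2.69 CPM (SD, n = 6), at least 45.1-fold higher than the floor of 3 reads per Ntg library. The fitted log2 fold change of 8.38 depends on a prior count. The labels give no strain, and a response of Gbp2b cannot be told apart from a difference between the groups in strain background or one linked to the transgene. Gbp2b passed the low-count filter only through the P301S mice and had to differ. That its call held when any of the 13 mice was left out is therefore no support for it.

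The rise was unequal between P301S mice. In mice 29, 65 and 77 all 8 tested members lay above every Ntg mouse, and in mouse 36 this held for 7. It held for Gbp2b, Gbp3 and Gbp5 in mouse 63 and for Gbp2b and Gbp3 in mouse 43. Gbp2b and Gbp6 passed the low-count filter only through the P301S mice. Without them, mouse 63 kept Gbp3 and Gbp5, and mouse 43 kept Gbp3. The share of all tested genes above every Ntg mouse was 20.9%, 24.7% and 23.2% in mice 29, 65 and 77, 19.8% in mouse 36, 19.0% in mouse 63 and 19.4% in mouse 43. From mouse 29 on in that order, Gbp2 stood at 17.4, 19.9, 17.3, 12.2, 5.74 and 2.80 CPM. Pearson's r between 2 members over the 13 mice was 0.678 to 0.970 over the 28 pairs (median 0.887), which includes the difference between the groups. Leaving out single mice changed the number of members called to between 1 and 6. It was 1, Gbp2b alone, without any of Ntg mice 35, 46, 61, 62, 68 and 71 or P301S mice 29 and 36. In those fits no member that had passed the filter in the Ntg mice was called. The number was 2 without P301S mouse 65, and 6 without P301S mouse 43 or 63, when Gbp7 was called as well. No member was called for a difference between the sexes in its response (interaction term, adjusted p 0.557 to 0.995), where 0% of all tested genes were. The terms ran from -2.71 (Gbp2b) to 0.33 (Gbp3). With 3 female and 3 male P301S mice, a difference could go undetected.

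**Figure D4:**
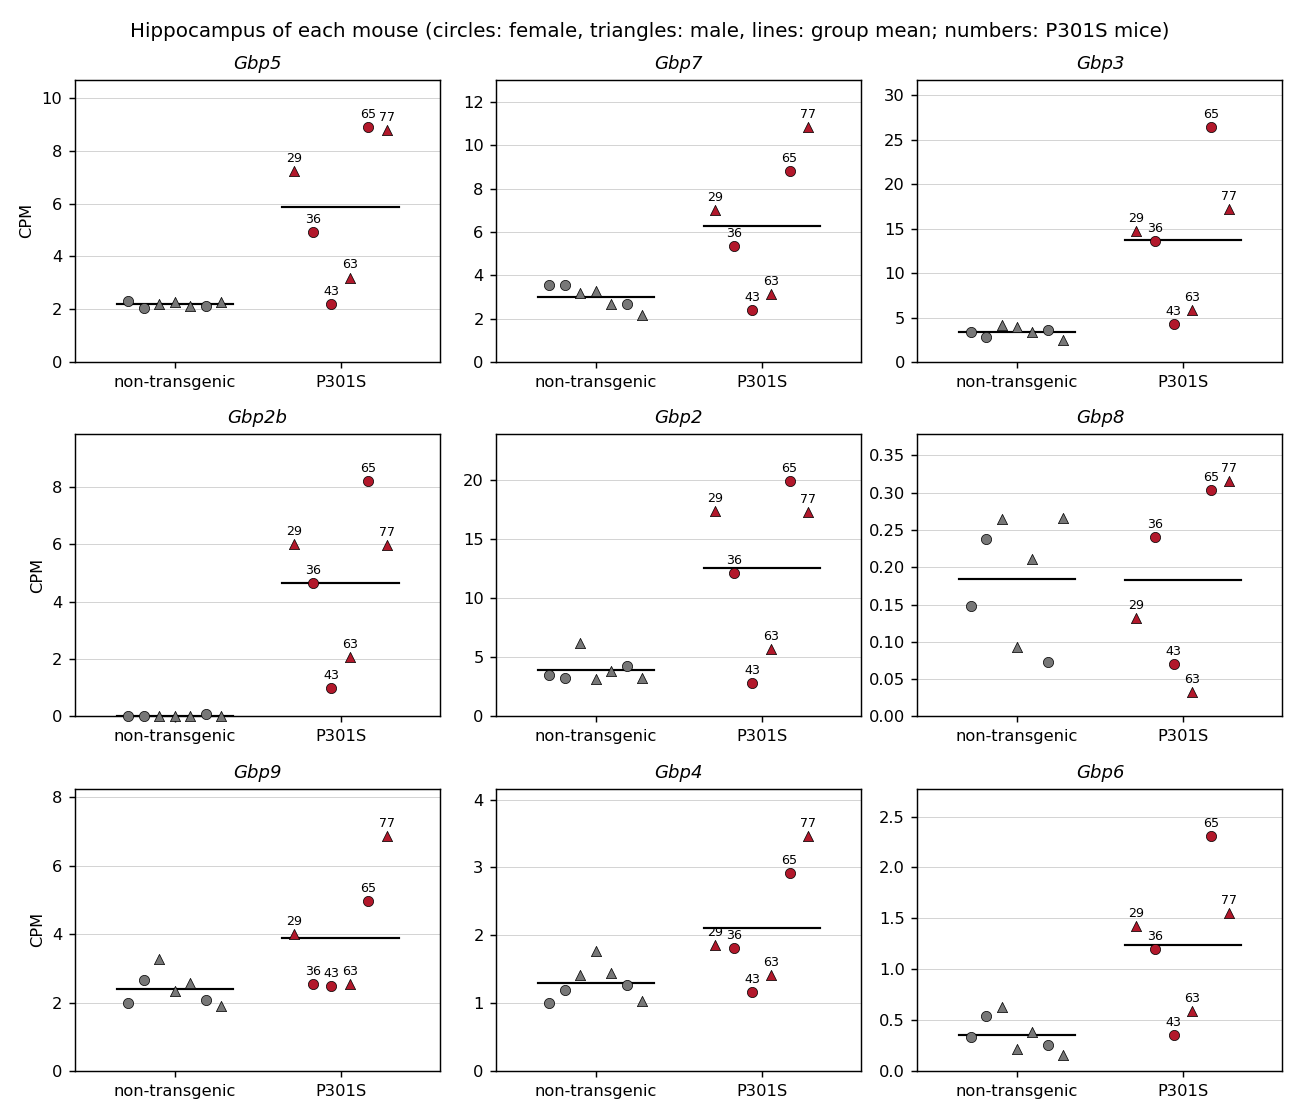
Level of the 9 members in hippocampus of 7 Ntg and 6 P301S mice, in CPM on linear axes that differ between panels. Circles are female and triangles male mice, lines are group means, and numbers name the P301S mice. Mice 43 and 63 lie near the Ntg mice for most members, at 2.80 and 5.74 CPM of Gbp2, while all 6 P301S mice lie above all 7 Ntg mice for Gbp2b and Gbp3.

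Some markers of cell types also differed between P301S and Ntg mice. The part of these markers in the GBP levels was not tested. The sum of 6 microglial and macrophage markers (Aif1, Itgam, C1qa, C1qb, Cd68 and Trem2) was 130 to 158 CPM in Ntg mice, and 800, 695, 152, 174, 830 and 345 CPM in P301S mice 29, 36, 43, 63, 65 and 77, with 4 of 6 called higher (median log2 fold change 1.77). The sum of 7 homeostatic markers was 322 to 399 CPM in Ntg and 315 to 714 CPM in P301S mice, with 0 of 7 called. The astrocyte sum was 3628 to 4411 and 3703 to 7389 CPM, with Gfap called higher. The T and NK cell markers summed to at most 0.363 CPM in Ntg and 2.41 CPM in P301S mice, with all 7 at or under 3 reads in every Ntg library. With the mean log2 CPM of the 7 homeostatic markers as a covariate, 2 members were called, Gbp2b (log2 fold change 7.46) and Gbp3 (1.19, adjusted p 0.0117). In that fit Gbp2 stood at 0.83 (adjusted p 0.286), Gbp5 at 0.85 (adjusted p 0.136) and Gbp6 at 0.97 (adjusted p 0.30). With sex as a covariate 3 were called, Gbp2b, Gbp3 and Gbp5, with Gbp2 at 1.69 (adjusted p 0.054) and Gbp6 at 1.76 (adjusted p 0.0668), and DESeq2 called 6, adding Gbp7. The share of all tested genes called in each of these fits is not given here. Their counts can therefore not be ranked against each other or against the main fit.

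Of the pathway list, 25 genes were tested in hippocampus and 6 were called higher, where 1.32% of all tested genes were. These were the transcription factors Irf7 (log2 fold change 2.42, adjusted p 0.0303), Irf8 (1.56, adjusted p 0.0327) and Irf9 (1.24, adjusted p 0.0303), the GTPases Igtp (1.6) and Irgm1 (1.46), and Casp4 (2.20). Casp4 had 2 to 11 reads in the Ntg mice, did not pass the low-count filter in them alone, and is given as a value. No receptor gene was called, and Ifnb1 had 0 or 1 read in every hippocampus.

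The surroundings of the clusters were examined because Gbp2b was nearly absent from Ntg mice. Of all tested genes in hippocampus, 1.32% were called higher and 0.0365% lower. Within 5 Mb of the chromosome 3 cluster, 1 of 52 other tested genes was called in hippocampus (1.92%, median log2 fold change 0.04), and within 5 Mb of the chromosome 5 cluster 1 of 91 (1.10%, median 0.01). The former was 4930590L14Rik, a long non-coding RNA gene (chr3:140951876-140953247) that lies 1.64 Mb from Gbp2b. It had 0 reads in all 7 Ntg mice and 13 to 44 reads in the 6 P301S mice, at least 7.49-fold above the floor, and like Gbp2b it passed the low-count filter only through the P301S mice. In the whole table of 48795 genes, 3 had at most 3 reads in every Ntg mouse and over 10 in every P301S mouse, Gbp2b, 4930590L14Rik and the chromosome 2 pseudogene Lamr1-ps1 (0 or 1 read against 61 to 119 reads), a set chosen after its values were seen. 4930590L14Rik and Lamr1-ps1 had 0 reads in every microglial library. None of the 7 genes flanking the clusters was called.

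**Figure D5:**
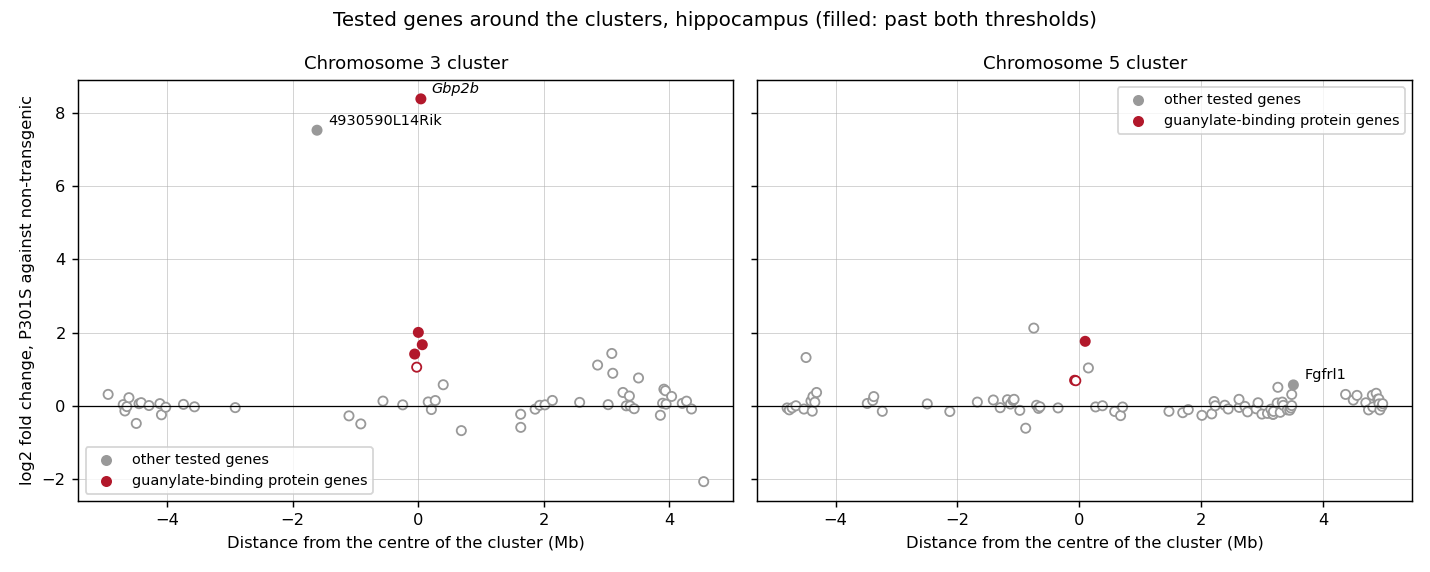
Log2 fold change of P301S against Ntg hippocampus for tested genes within 5 Mb of each cluster, by distance from the cluster centre in Mb. Red points are members, grey points other genes, and filled points passed both thresholds. Gbp2b (8.38) and 4930590L14Rik (7.52) stand above the chromosome 3 surroundings, whose other genes have a median of 0.04.

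The genes with the pattern most like that of the family were sought by Pearson's r between a gene's log2 CPM and the mean standardised log2 CPM of the tested members. In the 18 microglial libraries they were Phf11b (0.995), Tor3a (0.995), Nampt (0.995), Ifi35 (0.994) and Tap1 (0.993). In the 13 hippocampi they were Ifit1 (0.980), Irf7 (0.980), Cxcl10 (0.975), Parp14 (0.974) and Irf9 (0.971). The libraries share their groups, so these values largely follow the group differences. The r of the members themselves with this mean, of which each is a part, ran from 0.880 (Gbp2b) to 0.979 in hippocampus.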

How the data were processed

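The authors deposited raw counts, whole reads per Ensembl gene, for 18 microglial and 13 hippocampal libraries made with the QuantSeq 3′ kit named in the labels. The submitters' processing notes name GRCm38, edgeR and limma without saying what each was used for, and the aligner and counter are not given in the sources used here. Each column was matched to its sample by name, and 0 columns belonged to other samples. Counts were filtered with filterByExpr, scaled by TMM and tested in edgeR 4.0.16 (R 4.3.3) with the quasi-likelihood F-test, on all 6 microglial groups in 1 model and on both hippocampal groups in another. Alternatives were DESeq2 1.42.0, DESeq2-type size factors, no filter, no fold minimum, covariates, a replicate block, compared groups alone, and each library left out. The named genes were the 9 members, listed pathway and marker genes, and the 5 genes most like the members by Pearson's r. Members and lists were chosen with earlier results of these data known, and 1 listed gene is not reported here by name. The test was checked on simulated data. Floors and totals cover counting error alone. Promoter sequences came from RefSeq GRCm38.p6.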

Additional observations from a re-analysis of the deposited data

Results flagged for a closer look

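Among 17 combinations of a member and a hippocampal group examined for a single mouse far from the rest, 1 stood out, and chance marks about 1 in 20. Gbp2 in Ntg mouse 55 was 6.21 CPM, with a gap to the next mouse of 0.643 of the group's range.

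The response to tau fibrils differed between KO and WT microglia by the interaction term of edgeR's quasi-likelihood test for Gbp2 (1.58), Gbp3 (1.49), Gbp5 (2.95), Gbp6 (1.59) and Gbp9 (1.32), all larger in KO on the log2 scale and smaller in KO in CPM. The response to HT-DNA differed for Gbp2 (-3.34), Gbp3 (-2.51), Gbp5 (-3.95), Gbp6 (-1.94), Gbp7 (-3.16), Gbp8 (-1.88) and Gbp9 (-2.13), all smaller in KO.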

How the results depend on the processing

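In hippocampus the number of members called, 5, was 3 with sex as a covariate, 2 with the homeostatic marker covariate, and 1 to 6 when single mice were left out. Each of these counts includes Gbp2b, which passed the low-count filter only through the P301S mice. The share of all tested genes called in the other fits is not given here. In microglia 6 members were lower with tau fibrils than with HT-DNA when no fold minimum was set, against 0 with it. The number with a lower interaction term for tau fibrils was 0 to 1 when single libraries were left out. Values that changed sign, none of them called, did so only on leaving out a library: Gbp8 with tau fibrils in KO cells (-0.11 to 0.39), Gbp2 with HT-DNA in KO cells (-0.22 to 0.11, with 0.056 and 0.061 also above 0), Gbp9 with HT-DNA in KO cells (-0.025 to 0.32) and Gbp8 in KO against WT cells with tau fibrils (-0.35 to 0.16, with 0.019 on 2 occasions). The cause was not tested. Without the low-count filter 7 members instead of 5 had a higher interaction term for tau fibrils. Replicate numbers did not pair the microglial libraries: over 45 pairs with the same number, r of the deviations from group means was -0.0850 to 0.0823, and 5 of 18 libraries correlated best with their own number. With the replicate block, 7 members were called higher with tau fibrils and 8 with HT-DNA in WT cells, 7 and 0 in KO cells, and 7 lower in KO than in WT vehicle cells, the numbers found without it, and the counts for the other microglial comparisons were the same too. No other count of members moved by more than 1.5 times. Depth limits Gbp2b in microglia, Gbp8 in hippocampus, and Gbp4 and Gbp5 in KO cells.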
